A study of Mus musculus with 12 samples.

Results

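The comparison described here sets thymocytes at the DN3 stage against those at the DN2 stage, the step at which early thymocytes become committed to the T lineage. Its members are the 8 arrays labelled DN2 or DN3 of the 12 in the series, chosen by those labels and paired by the number of the sort. Transcript levels were measured on Affymetrix Mouse Genome 430 2.0 arrays in double negative (DN) thymocytes, which carry neither CD4 nor CD8. All groups came from female C57BL/6 mice of 5 to 6 weeks with no transgene or treatment named, and each of the 4 sorts pooled the thymuses of 4 animals, 16 in all. CD4+ and CD8+ cells were first depleted on magnetic columns, and cells positive for NK1.1, CD3, the gamma-delta receptor or remaining CD4 or CD8 were then gated out. DN2 cells were collected as CD44+CD25+, DN3 cells as CD44-CD25+ and DN4 cells, used here for the variance estimate and for levels at the next stage, as CD44-CD25-. Every sort gave 1 sample of each stage, so that the replicates of a stage are separate sorts and the stages of a sort share their animals.

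Progenitors that enter the thymus keep the potential to become other blood cells for a time. At DN2 they divide under stem cell factor, interleukin 7 and Notch signals, and at DN3 they rearrange the T cell receptor beta locus and shut off genes of the other lineages. E proteins, a family of basic helix-loop-helix transcription factors that bind the short DNA motif called an E-box, act with Notch at this step and drive the recombinase genes and the pre-T cell receptor alpha chain gene.

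Levels are given as log2(signal + offset) after quantile normalization, with the 4 arrays of a stage in the order of sorts 1 to 4. Differences are DN3 minus DN2 on that scale with the standard error from limma, in a model over all 12 arrays with the sort as a block, n = 4 arrays a stage. A gene is called, and is said to have risen or fallen, where its Benjamini-Hochberg adjusted p over 11174 genes was under 0.05. Each gene so described moved that way in 4 of 4 sorts unless that is stated. The offset (signal 5.68) makes differences of dim genes smaller than they were, and for a stage mean under the filter level (log2 4.71) a linear fold is given as at least the fold against that level. Levels of different genes come from different probe sets and are not compared.

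The arrays bore out their labels. Cd44, which encodes the surface protein that separates the gates, read 8.76 to 10.06 on the DN2 arrays and 5.32 to 6.13 on the DN3 arrays. Kit, the stem cell factor receptor, read 9.32 to 10.07 and 7.53 to 8.16, and Lyl1, a progenitor transcription factor, 7.99 to 8.72 and 3.32 to 4.57. In the opposite direction Lef1, which encodes a relative of TCF-1, read 6.60 to 7.21 in DN2 and 10.33 to 10.53 in DN3. Ptcra, whose product pairs with a rearranged beta chain, read 5.95 to 7.33 and 8.43 to 9.72, and Rag1, which cuts receptor gene segments for joining, 9.77 to 10.33 and 11.99 to 12.34. Averaged over their probe sets the differences of Cd44 and Kit were -2.30 and -1.22, against -3.69 ± 0.15 and -1.86 ± 0.11 on their brightest probe sets. None of these 6 genes, the markers set for this comparison, overlapped between the stages. Over all genes tested DN3 lay above DN2 without overlap in 8.1% and below it in 9.32%. Il2ra, which encodes the CD25 of both gates, was high in both, at a mean of 11.20 in DN2 and 10.46 in DN3.

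Signals were linear and not on a common scale, with medians of 16.7 to 28.0 on the DN2 arrays and 19.7 to 25.7 on the DN3 arrays, and their number limits the precision. The log2 ratio of 3′ to 5′ control probe sets of Gapdh, a measure of RNA length after amplification, was 1.45, 1.82, 1.18 and 1.10 in DN2 and 0.88, 1.26, 0.92 and 1.09 in DN3. The Gapdh ratio was lower in DN3 in each sort, by least in sort 4. The same ratio of actin was 0.91, 1.10, 1.02 and 0.98 in DN2 and 0.92, 0.93, 0.84 and 0.99 in DN3. The actin ratio was thus lower in DN3 in sorts 2 and 3 and slightly higher in sorts 1 and 4. The part of the Gapdh ratio in the differences below was not tested beyond the fit that holds it as a covariate. No 2 arrays held identical values.

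In all 2325 of 11174 genes were called (20.8%), 1113 of them higher in DN3 (9.96%) and 1212 lower (10.8%). The higher share was thus 47.9% of calls, or 60.7% with arrays centred on their median. The median difference over all genes was 0.02, and 0.13 without normalization between arrays. In these pools fewer cells that carry a transcript and less of it in each cell cannot be told apart. Large falls outnumbered large rises. Of the genes that fell 326 fell at least 2-fold (2.92% of those tested), 83 at least 4-fold and 29 at least 8-fold, whereas 164 rose at least 2-fold (1.47%), 30 at least 4-fold and 5 at least 8-fold. The median fold of a called gene was 1.46 among rises and 1.59 among falls. Of the calls 620 rises and 490 falls were smaller than 1.5-fold. The dimmer stage was under the filter level for 83 rises and 122 falls. All 4 DN3 arrays lay above all 4 DN2 arrays for 905 genes tested (8.1%) and below them for 1041 (9.32%). In the plot of difference against level, the greatest falls are spread over dim and bright genes alike.

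**Figure D1:**
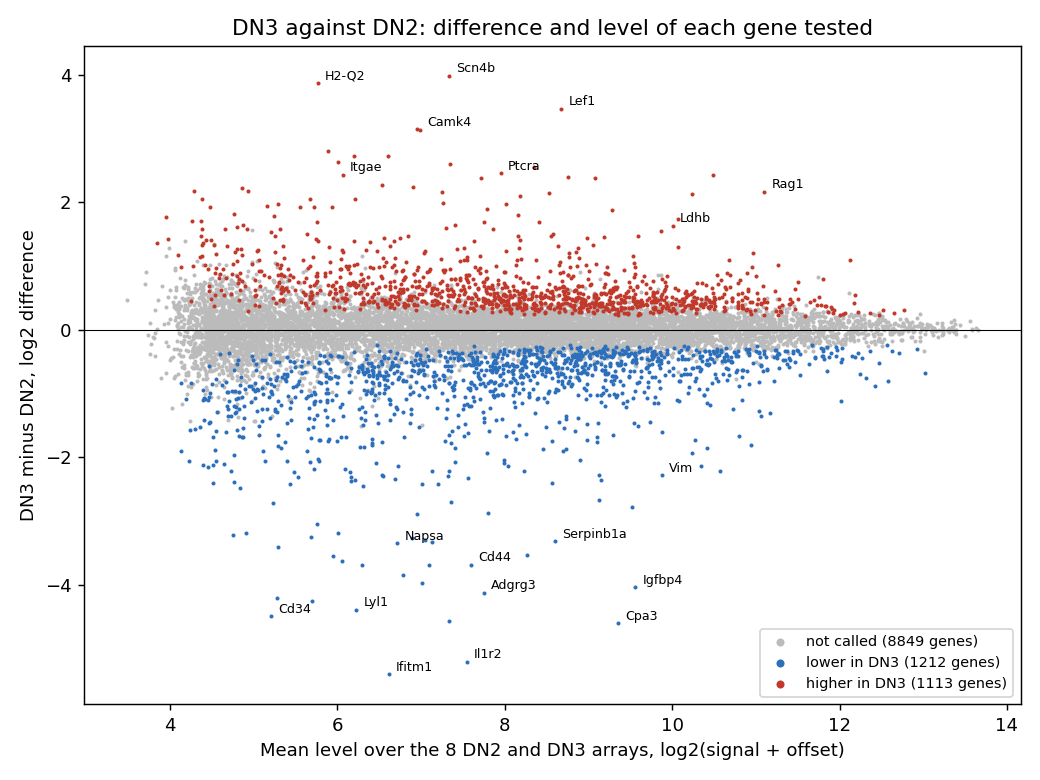
Each point is 1 of the 11174 genes tested, placed by its mean level over the 8 DN2 and DN3 arrays (horizontal axis, log2(signal + offset)) and its DN3 minus DN2 difference (vertical axis, log2), in red where called higher in DN3, blue where called lower and grey where not called. Falls reach -5.40 (Ifitm1) and rises 3.99 (Scn4b).

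Fewer genes were called without the sort as a block, 1253 (532 higher and 721 lower), and with the sorts split in pairs, 292 in sorts 1 and 2 and 572 in sorts 3 and 4. With the Gapdh ratio added to the model 397 were called, 299 of them at least 2-fold apart. Leaving out any 1 array or any 1 sort left 1150 to 2010 calls. The count moved by over 1.5 times without sort 2 (1412), without sort 3 (1481) and without sort 4 (1150), while 433 to 514 genes were called at least 2-fold apart in these fits against 490 with all arrays. No gene called in both a leave-out and the full fit changed direction.

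The greatest rises at this step included genes of ion transport, adhesion and membrane signalling. Scn4b, a beta subunit of voltage-gated sodium channels, read 5.37, 6.13, 5.13 and 4.74 in DN2 and 9.18, 9.79, 9.46 and 8.88 in DN3, a rise of 3.99 ± 0.19 or 15.8-fold (adjusted p = 1.22e-05). Tenm1, a teneurin of the cell surface, read 4.64, 5.39, 6.09 and 5.37 in DN2 and 8.33, 8.27, 8.80 and 8.73 in DN3 (3.16 ± 0.18, adjusted p = 2.61e-05). Slc5a9, a sodium-dependent sugar transporter, read 4.11, 4.77, 4.93 and 4.17 in DN2 and 7.09, 6.96, 7.79 and 7.32 in DN3 (2.80 ± 0.21, adjusted p = 9.19e-05). In these 3 genes the lowest DN3 array stood well above the highest DN2 array.

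Afdn, the junction scaffold afadin, read 5.73, 5.01, 4.94 and 5.29 in DN2 and 8.47, 7.87, 7.49 and 8.06 in DN3 (2.73 ± 0.16, adjusted p = 2.99e-05). Vwce, a secreted protein with von Willebrand factor C domains, read 4.37, 4.96, 5.01 and 4.97 in DN2 and 7.84, 7.15, 7.69 and 7.56 in DN3 (2.73 ± 0.18, adjusted p = 3.87e-05). Bcat1, the cytosolic branched-chain amino acid transaminase, read 4.39, 3.72, 5.12 and 5.52 in DN2 and 7.11, 7.05, 7.23 and 7.90 in DN3 (2.63 ± 0.24, adjusted p = 0.000237). The highest DN3 array was that of sort 1 for Afdn and Vwce and that of sort 4 for Bcat1, and the groups of all 3 genes lay apart. Sh2d1a, the adaptor SAP of SLAM family receptors, rose by 2.55 ± 0.13, Camk4, a calcium/calmodulin-dependent kinase, by 3.13 ± 0.22, and Pvr, a nectin-like adhesion protein, by 2.27 ± 0.23 (adjusted p = 1.45e-05, 5.17e-05 and 0.000392). H2-Q2, a class I gene of the Qa region, rose from below the filter level by 3.87 ± 0.22 (at least 7.93-fold, adjusted p = 2.63e-05), and its probe set may read near-identical Qa genes as well. Plxdc1 and Hivep3 rose by 2.61 ± 0.10 and 2.39 ± 0.15 on their brightest probe sets (adjusted p = 4.93e-06 and 3.44e-05), but another bright probe set of each differed by 0.01 and 0.04. Averaged over each gene's probe sets the difference was 2.33 for Tenm1, 1.30 for Afdn, 1.09 for Bcat1, 1.21 for Camk4, 1.21 for Pvr, 1.31 for Plxdc1 and 0.81 for Hivep3.

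The greatest falls included genes known from progenitors and from other blood lineages, and several were bright in DN2. Adgrg3, an adhesion G protein-coupled receptor of granulocytes, read 9.87, 9.56, 9.85 and 9.95 in DN2 and 5.65, 5.34, 5.83 and 5.91 in DN3, a fall of 4.13 ± 0.11 or 17.5-fold (adjusted p = 1.39e-06). Igfbp4, a secreted binding protein of insulin-like growth factors, read 11.87, 11.44, 11.62 and 11.37 in DN2 and 7.64, 7.55, 7.52 and 7.45 in DN3 (-4.04 ± 0.15, adjusted p = 4.93e-06), and its 5 bright probe sets differed by -4.34 to -2.16. Emilin2, an extracellular matrix glycoprotein, read 8.55, 8.76, 8.75 and 8.77 in DN2 and 4.94, 5.14, 4.59 and 4.77 in DN3 (-3.85 ± 0.26, adjusted p = 5.17e-05). For each of them every DN2 array stood over 3 log2 units above every DN3 array, a gap several times the spread within a stage.

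Napsa, an aspartic protease, read 8.34, 8.002, 8.57 and 8.65 in DN2 and 4.80, 4.94, 5.28 and 5.16 in DN3 (-3.35 ± 0.14, adjusted p = 6.76e-06). Nfe2, a transcription factor of platelet precursors, read 9.51, 8.54, 8.62 and 8.51 in DN2 and 5.52, 5.74, 5.80 and 4.80 in DN3 (-3.33 ± 0.30, adjusted p = 0.000219), highest in DN2 and lowest in DN3 within different sorts. Mpo, the myeloperoxidase of neutrophil granules, read 7.66, 6.95, 7.92 and 8.38 in DN2 and 4.37, 3.85, 3.70 and 4.77 in DN3 (-3.55 ± 0.46, adjusted p = 0.0013). The Mpo levels were wide apart among DN2 arrays but still lay above all DN3 arrays. Plek, a substrate of protein kinase C, fell by 3.69 ± 0.37, Ctla2b, a small cysteine protease inhibitor, by 3.53 ± 0.23, and Bpifc, of the lipid-binding BPI family, by 3.68 ± 0.23 (adjusted p = 0.000341, 3.98e-05 and 3.25e-05). Of the best known members of this group, Cpa3 of mast cell granules fell by 4.60 ± 0.25, the decoy receptor gene Il1r2 by 5.20 ± 0.44, and Ifitm1, of a family that restricts virus entry, by 5.40 ± 0.22 or at least 24.3-fold (adjusted p = 1.95e-05, 0.000149 and 6.03e-06). Over all probe sets averaged the difference was -2.94 for Igfbp4, -1.86 for Napsa and -2.57 for Plek.

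**Figure D2:**
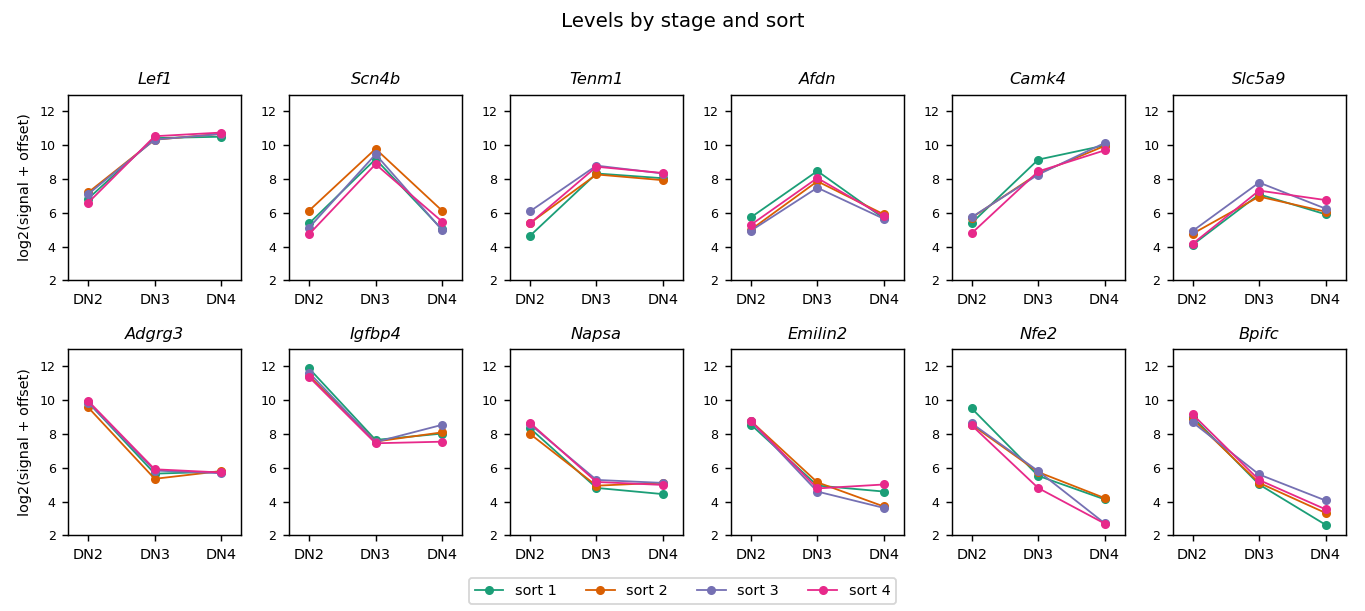
Levels of 6 genes that rose (top) and 6 that fell (bottom) from DN2 to DN3, in log2(signal + offset) on the vertical axis against the stage, with 1 point for each array and 1 line for each of the 4 sorts. The lines of the 4 sorts run together from DN2 to DN3 in each panel, whereas from DN3 to DN4 they fall again for Scn4b and Afdn and rise further for Camk4.

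Promoter sequences picked as examples are shown for 3 genes that rose and 1 that fell. They set the E-boxes of the rising recombinase and receptor genes beside a promoter without one. They do not stand for all rises or all falls, whose shares are given below. They are the 250 bases before the transcription start in RefSeq (GRCm38.p6), 5′ to 3′ on the strand of the gene, at chr17:46763713-46763962, minus strand for Ptcra, chr2:101649533-101649782, minus strand for Rag1, chr9:44981536-44981785, plus strand for Cd3d and chr6:123261857-123262106, plus strand for Clec4d. Capitals mark CAGCTG or CACCTG on either strand, the E-boxes bound by E proteins.
Ptcra: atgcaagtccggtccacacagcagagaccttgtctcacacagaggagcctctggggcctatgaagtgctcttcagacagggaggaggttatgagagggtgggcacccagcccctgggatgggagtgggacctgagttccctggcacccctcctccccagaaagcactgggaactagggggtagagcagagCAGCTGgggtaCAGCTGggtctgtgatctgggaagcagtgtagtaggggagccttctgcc
Rag1: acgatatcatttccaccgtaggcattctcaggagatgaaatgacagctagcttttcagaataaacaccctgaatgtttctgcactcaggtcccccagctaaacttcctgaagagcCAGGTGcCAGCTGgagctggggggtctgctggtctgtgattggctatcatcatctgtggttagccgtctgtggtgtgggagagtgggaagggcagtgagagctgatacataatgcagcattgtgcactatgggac
Cd3d: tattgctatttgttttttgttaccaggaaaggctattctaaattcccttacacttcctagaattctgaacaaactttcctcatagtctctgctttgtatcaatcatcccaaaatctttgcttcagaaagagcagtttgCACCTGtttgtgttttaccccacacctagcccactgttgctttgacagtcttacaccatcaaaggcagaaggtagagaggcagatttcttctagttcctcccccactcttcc
Clec4d: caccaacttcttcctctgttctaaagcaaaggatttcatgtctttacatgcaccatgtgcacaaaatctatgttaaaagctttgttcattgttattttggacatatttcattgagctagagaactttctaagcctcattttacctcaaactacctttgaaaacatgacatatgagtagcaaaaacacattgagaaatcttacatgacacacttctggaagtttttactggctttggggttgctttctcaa

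The windows of Ptcra and Rag1 each hold 2 such E-boxes, that of Cd3d 1 and that of Clec4d, a C-type lectin of myeloid cells, 0. Cd3d, a chain of the T cell receptor complex, read 9.27, 9.69, 9.50 and 8.63 in DN2 and 11.68, 11.84, 11.71 and 11.60 in DN3 (2.43 ± 0.16, adjusted p = 4.58e-05). Clec4d read 6.89, 6.25, 7.32 and 7.48 in DN2 and 3.96, 3.62, 3.88 and 2.88 in DN3 (-3.40 ± 0.31, adjusted p = 0.000221). The pair CpG occurs 1 time in the window of Ptcra, 3 times in that of Rag1 and 0 times in the others.

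Promoters were matched for 9100 of the 11174 genes tested, taking the first start listed for a gene. The E-box of E proteins was present on either strand in 24.7% of them, in 41.7% of the 120 promoters of genes at least 2-fold higher in DN3 and in 26.0% of the 250 of genes at least 2-fold lower. Over all 904 promoters of called rises, whatever their size, the share was 25%. A RUNX motif (TGTGGT) was present in 10.8% of all promoters, 9.17% of the at least 2-fold rises and 16.0% of the falls, and a MYB motif (AACTGN) in 33.1%, 34.2% and 40.4%. An ETS motif (CCGGAAG) was present in 14.7%, 6.67% and 4.80%, and the GC box (GGGCGG) in 59.2%, 52.5% and 48.0%. The TCF/LEF motif TTCAAAG was present in 3.31%, 0.83% and 5.60%, so that 1 of 120 rising promoters held it. A match is a description of letters and not a binding site.

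Promoters of strongly changed genes held fewer CpG pairs than those of other genes. The ratio of observed to expected CpG had a median of 0.74 over all promoters, 0.65 for genes at least 2-fold higher and 0.45 for genes at least 2-fold lower. It was under 0.6 in 31.6% of all promoters, 45.8% of the rises and 60.8% of the falls of that size. For called rises of any size the share was 24.4% and for falls 43.6%. The motif shares move with base composition, since the ETS and GC box motifs are rich in G and C, and these shares were not tested.

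**Figure D3:**
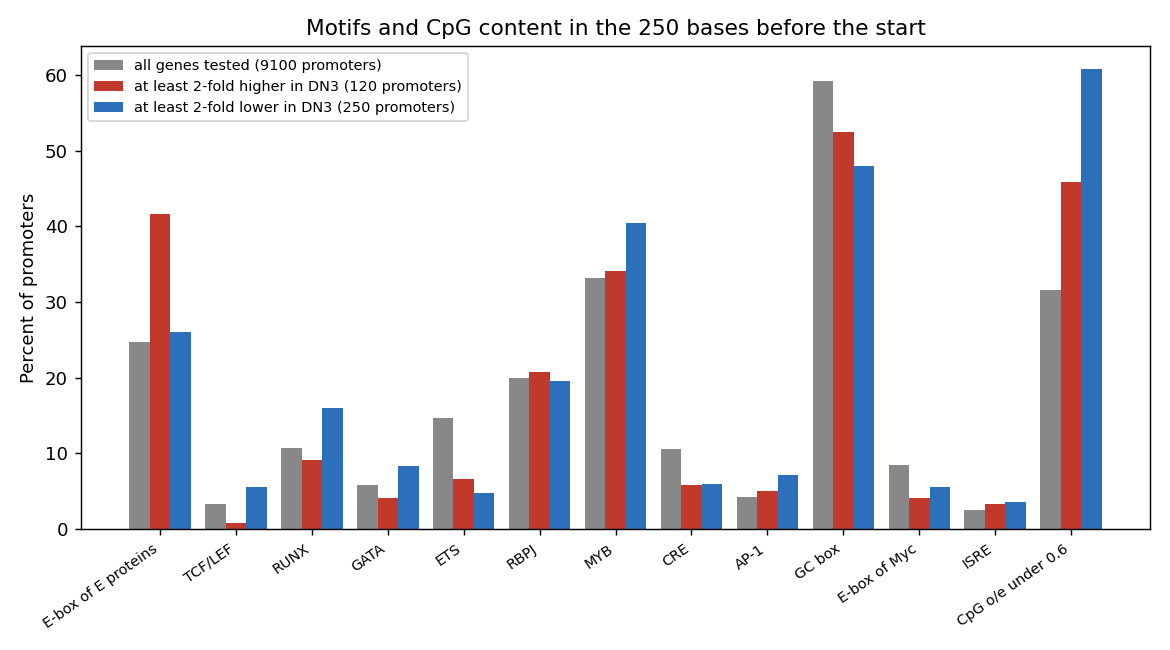
Percent of promoters (250 bases before the start) that hold each motif on either strand, or have a ratio of observed to expected CpG under 0.6, for all genes tested (grey), genes at least 2-fold higher in DN3 (red) and at least 2-fold lower (blue). The E-box of E proteins stands out among rises of at least 2-fold (41.7% against 24.7%) and low CpG content among falls of that size (60.8% against 31.6%). Over called rises of any size the E-box share was 25%, and over called falls of any size the low CpG share was 43.6%.

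Gene families were read next by role. In what follows, a parenthesis after a count gives the same counts of rises and falls as a range over 12 fits that each left out 1 array or 1 sort, and in the fit without the sort as a block. The counts are of tested members only, since members dim on most arrays were not tested. Those of the full fit are to be read against 9.96% higher and 10.8% lower over all genes. Those in parentheses come from fits that called fewer of the 11174 genes. These were 474 to 956 higher and 676 to 1054 lower in the leave-outs, and 532 and 721 without the block.

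Surface proteins of the CD antigen list moved in both directions. Of 53 CD antigens tested, of 81 on the array, 11 rose and 16 fell (4 to 9 and 12 to 16 in the leave-outs, 6 and 14 without the block). Cd2, an adhesion and costimulatory receptor, rose by 1.59 ± 0.22 (adjusted p = 0.00167). Cd34, of blood progenitors, and Cd244a, a SLAM family receptor of natural killer cells, fell to below the filter level, at least 6.67-fold and at least 8.61-fold (adjusted p = 2.42e-06 and 0.000134). Cd93, a surface glycoprotein of progenitors, read 10.81, 10.05, 10.48 and 10.52 in DN2 and 7.54, 7.96, 7.98 and 7.71 in DN3 (-2.67 ± 0.18, adjusted p = 4.79e-05). Averaged over their probe sets Cd93 was at -1.32 and Cd244a at -3.14. Cd24a, a glycoprotein abundant on immature thymocytes, differed by 0.11 ± 0.09 and Thy1, the pan-T cell antigen, by 0.23 ± 0.09, neither called.

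Integrin chains also moved in both directions. Of 17 tested 4 rose and 5 fell (3 to 4 and 5 to 6 in the leave-outs, 3 and 5 without the block). Itgae, the alpha E chain that pairs with beta 7 to bind E-cadherin, read 5.20, 4.83, 5.18 and 4.18 in DN2 and 6.75, 7.54, 7.34 and 7.50 in DN3 (2.44 ± 0.25, adjusted p = 0.000453). Itgb4, a laminin receptor chain, rose by 1.94 ± 0.26, while Itgax, the CD11c chain of dendritic cells, fell by 2.05 ± 0.19, Itga2b of platelets by 1.77 ± 0.19 and Itgb7 by 1.52 ± 0.19 (adjusted p = 0.00164, 0.000212, 0.000488 and 0.00105). The partner chains Itgae and Itgb7 therefore moved apart, Itgb7 from 7.73 to 6.22.

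Several adhesion proteins known from epithelia rose. Of 20 cadherins, catenins and junction proteins tested, 5 rose and 1 fell (4 to 5 and 1 in the leave-outs, 4 and 1 without the block). Cdh15, a cadherin first known from muscle, rose by 1.70 ± 0.12, Epcam, an epithelial adhesion molecule, by 1.48 ± 0.20 and Cdh1, E-cadherin, by 0.92 ± 0.17 (adjusted p = 6.46e-05, 0.00166 and 0.00713). Ctnna1, the alpha catenin that links cadherins to actin, fell by 0.98 ± 0.09 (adjusted p = 0.000193), and Ctnnb1, beta catenin, differed by -0.03 ± 0.09. Nrp1, a receptor of semaphorins and vascular growth factor, rose by 2.10 ± 0.17 (adjusted p = 0.000134).

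Tetraspanins and lectin-like receptors that were called mostly fell. Among 20 tetraspanins, which organise receptors in the membrane, 2 rose and 8 fell (0 to 1 and 5 to 8 in the leave-outs, 0 and 5 without the block). Tspan2 fell by 1.76 ± 0.12 and Cd53, a tetraspanin of leukocytes, by 1.03 ± 0.17 (adjusted p = 5.66e-05 and 0.00396). Among 19 C-type lectin, Klr and paired receptors tested of 60 on the array, 0 rose and 8 fell (0 and 5 to 7 in the leave-outs, 0 and 7 without the block). Clec4e, a sensor of fungal and mycobacterial lipids encoded beside Clec4d, read 8.11, 6.70, 7.18 and 7.54 in DN2 and 3.39, 2.84, 3.78 and 2.71 in DN3 (-4.20 ± 0.26, adjusted p = 3.44e-05), or -3.005 averaged over its probe sets. Siglecf, a sialic acid receptor of eosinophils, fell by 2.11 ± 0.38, and Tyrobp, the signalling adaptor of many such receptors, by 3.63 ± 0.34 (adjusted p = 0.00571 and 0.000251). Cd48, the ligand of Cd244a, fell by 1.51 ± 0.13 (adjusted p = 0.000177).

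Class I genes and the genes that load them with peptide were called mostly lower. Of 14 class I and peptide loading genes tested, 1 rose and 5 fell (1 and 2 to 4 in the leave-outs, 1 and 3 without the block), and 1 and 0 were called without normalization between arrays. H2-K1, a classical class I chain, fell by 0.69 ± 0.11 and Tap1, of the peptide transporter, by 0.68 ± 0.10 (adjusted p = 0.00369 and 0.00211), whereas B2m, the shared light chain, differed by -0.15 ± 0.09. The rise of H2-Q2 was the 1 rise of this list.

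Genes of G protein signalling were called lower more often than higher. Of 76 receptors, G proteins and regulators tested, 6 rose and 22 fell (5 to 7 and 10 to 20 in the leave-outs, 5 and 13 without the block). Rgs18, a regulator of G protein signals in platelets and myeloid cells, read 8.03, 7.996, 9.05 and 8.98 in DN2 and 4.69, 5.52, 5.46 and 5.37 in DN3 (-3.26 ± 0.34, adjusted p = 0.000448). Rgs14, a related regulator, rose by 1.06 ± 0.10 (adjusted p = 0.000318). P2rx1, which the list holds by its symbol, is an ATP-gated channel and not a G protein-coupled receptor. It is 1 of the 6 rises, by 0.89 ± 0.17 (adjusted p = 0.00804). Receptors of the lipid sphingosine 1-phosphate moved apart, with S1pr2 at 1.27 ± 0.21 and S1pr4 and S1pr1 at -1.22 ± 0.20 and -0.89 ± 0.16 (adjusted p = 0.00449, 0.00387 and 0.00658). The chemokine receptor genes Cxcr4 and Ccr9, which guide progenitors in the thymus, differed by 0.01 ± 0.12 and 0.86 ± 0.27 and were not called. Ccr9 differed by 0.44 in sorts 1 and 2 and by 1.27 in sorts 3 and 4, and was called higher under 8 other settings, among them both other scalings and without sort 2. Averaged over its probe sets its difference was 0.44.

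Regulators of Ras and Rap, small GTPases that relay receptor signals, were on both sides. Of 43 Ras and Rap genes tested, 8 rose and 7 fell (6 to 8 and 3 to 7 in the leave-outs, 5 and 4 without the block). Among them Rasal1, an activator of Ras GTP hydrolysis, rose by 1.94 ± 0.33, Rap1gap2, its counterpart for Rap1, by 1.93 ± 0.21 and Spry1, an inhibitor of receptor signals to Ras, by 1.33 ± 0.14, while Rasa3 fell by 1.49 ± 0.13 (adjusted p = 0.00449, 0.000616, 0.000463 and 0.000155).

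Phosphatases that act on MAP kinases and on receptors moved in both directions. Of 37 tyrosine and dual-specificity phosphatases tested, 10 rose and 8 fell (7 to 9 and 4 to 9 in the leave-outs, 8 and 4 without the block). Dusp4, which inactivates MAP kinases, read 6.28, 5.54, 6.96 and 6.32 in DN2 and 8.35, 8.46, 8.17 and 8.07 in DN3 (1.99 ± 0.26, adjusted p = 0.00146). Dusp2, of the same family, read 10.48, 10.82, 10.08 and 9.92 in DN2 and 7.29, 8.14, 8.73 and 7.72 in DN3 (-2.35 ± 0.26, adjusted p = 0.000646). Both pairs of groups were without overlap, in opposite directions. Dusp10 rose by 1.002 ± 0.14, the receptor phosphatase Ptprf by 1.05 ± 0.08, and Ubash3b, which restrains Syk kinases, fell by 1.27 ± 0.21 (adjusted p = 0.00201, 9.19e-05 and 0.00449). Ptprc, which encodes CD45, differed by 0.18 ± 0.09.

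In the phosphoinositide and diacylglycerol pathway, 4 rose and 11 fell (3 to 5 and 6 to 10 in the leave-outs, 2 and 5 without the block) of 54 tested. Plcg2, a phospholipase C of B and myeloid cells, read 9.61, 9.61, 9.60 and 9.75 in DN2 and 7.63, 7.90, 7.60 and 7.86 in DN3 (-1.89 ± 0.08, adjusted p = 6.79e-06). Pik3r5, a regulatory subunit of phosphoinositide 3-kinase gamma, rose by 1.11 ± 0.08 and Prkcb, protein kinase C beta, by 0.64 ± 0.11, while Inpp5d, the lipid phosphatase SHIP, fell by 1.39 ± 0.19, or -0.81 averaged over its probe sets (adjusted p = 9.09e-05, 0.00542 and 0.00161). Pde2a, a cyclic nucleotide phosphodiesterase, fell by 2.14 ± 0.14, or -1.28 averaged likewise (adjusted p = 3.98e-05).

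Called genes of the TGF-beta family were mostly lower. Of 28 tested, 2 rose and 8 fell (1 to 2 and 7 to 9 in the leave-outs, 1 and 4 without the block). Tgfbr2, the type II receptor, fell by 1.36 ± 0.15, the ligand gene Tgfb1 by 1.23 ± 0.18 and Ltbp3, which stores the ligand in matrix, by 1.23 ± 0.21, while Bmp7 rose by 1.53 ± 0.24 (adjusted p = 0.000696, 0.00237, 0.00502 and 0.00344). The mean of all probe sets gave -0.72 for Tgfbr2 and -0.64 for Ltbp3. The mediators Smad3 and Smad4 differed by 0.23 ± 0.11 and -0.07 ± 0.10. Among secreted cytokines Il34, a ligand of the Csf1 receptor, rose by 1.33 ± 0.24, whereas Il15, a growth factor of natural killer cells, fell by 2.05 ± 0.29 and the chemokine Ccl5 by 2.12 ± 0.38 (adjusted p = 0.00578, 0.00208 and 0.0061).

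Receptor and signalling genes of other families were called on both sides, except that those called among Fc, Toll-like and NOD-like receptors fell. Among receptors, of 16 chemokine and sphingosine phosphate receptors 1 rose and 3 fell (1 to 2 and 2 to 3 in the leave-outs, 1 and 2 without the block), and of 18 TNF family ligands and receptors 3 rose and 3 fell (1 to 3 and 1 to 3 in the leave-outs, 0 and 3 without the block). Of 26 semaphorins, ephrins and receptors, which include Nrp1, 3 rose and 3 fell (1 to 4 and 1 to 2 in the leave-outs, 1 and 1 without the block). Among 11 Ly6 and SLAM family genes 1 rose and 3 fell (1 to 2 and 2 to 3 in the leave-outs, 1 and 3 without the block), and among 4 Fc receptors and adaptors, Tyrobp included, 0 rose and 3 fell (0 and 1 to 3 in the leave-outs, 0 and 3 without the block). Toll-like and NOD-like receptors numbered 17, and 0 rose and 3 fell (0 and 2 to 3 in the leave-outs, 0 and 3 without the block). Within the cell, of 39 cyclic AMP pathway genes 6 rose and 5 fell (2 to 5 and 3 to 5 in the leave-outs, 1 and 4 without the block), and of 36 members of the MAP kinase cascade 4 rose and 3 fell (1 to 3 and 1 to 3 in the leave-outs, 1 and 1 without the block). In the Wnt pathway 2 rose and 3 fell (1 to 3 and 1 to 3 in the leave-outs, 1 and 3 without the block) of 33, and in the cytokine and chemokine list 2 rose and 3 fell (1 to 3 and 2 to 4 in the leave-outs, 1 and 3 without the block) of 20.

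Ion channels rose and fell in like number, as 9 rose and 8 fell (4 to 10 and 6 to 8 in the leave-outs, 6 and 7 without the block) of 63 tested. Scn2b, the sodium channel beta subunit encoded next to Scn4b, read 4.70, 4.40, 4.03 and 4.97 in DN2 and 5.92, 6.28, 6.13 and 6.07 in DN3 (1.58 ± 0.23, adjusted p = 0.00241), or 0.80 averaged over its probe sets. Trpv2, a cation channel, fell by 1.13 ± 0.12 (adjusted p = 0.000563), and Atp2a2, the calcium pump of the endoplasmic reticulum, differed by -0.03 ± 0.08.

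Transcription factors outside the T-lineage lists were called on both sides. Of 320 zinc finger and BTB proteins tested, 22 rose and 19 fell (7 to 16 and 9 to 16 in the leave-outs, 8 and 10 without the block), or 6.88% and 5.94%, both under the shares over all genes. Zfp521, a zinc finger protein of progenitors, fell by 2.39 ± 0.45 and Zbtb16, the PLZF gene of innate T cells, by 1.65 ± 0.19 (adjusted p = 0.00713 and 0.000747). Hoxa9, a homeobox factor of progenitors, fell by 2.28 ± 0.41 and Hhex by 3.97 ± 0.23, while Pou6f1 rose by 1.26 ± 0.14 (adjusted p = 0.00563, 2.89e-05 and 0.000603). Bach2, a repressor of the bZIP family, read 8.91, 8.96, 8.62 and 8.52 in DN2 and 6.77, 7.22, 6.53 and 6.81 in DN3 (-1.92 ± 0.13, adjusted p = 4.58e-05). The chromatin organiser gene Satb1 differed by 0.04 ± 0.09 and Zeb1 by -0.02 ± 0.11 on their brightest probe sets, and their bright probe sets ran from -0.51 to 0.66 and from -0.18 to 1.21. Averaged over their probe sets Zfp521, Hoxa9 and Pou6f1 were at -1.70, -1.42 and 0.64. In the other lists of factors, of 29 homeobox factors 3 rose and 3 fell (1 to 3 and 2 to 3 in the leave-outs, 2 and 3 without the block) and of 26 nuclear receptors and co-regulators 2 rose and 3 fell (1 to 3 and 2 to 3 in the leave-outs, 2 and 2 without the block). Beside them, of 44 bZIP and clock factors 6 rose and 4 fell (2 to 7 and 1 to 2 in the leave-outs, 1 and 1 without the block) and of 20 Klf and Sp factors 2 rose and 4 fell (0 to 2 and 0 to 2 in the leave-outs, 0 and 1 without the block).

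Among chromatin modifiers 27.3% of Polycomb genes and 22.2% of deacetylases and sirtuins rose, against 9.96% over all genes. Of 22 Polycomb complex genes tested, 6 rose and 1 fell (3 to 6 and 0 to 1 in the leave-outs, 2 and 0 without the block). Cbx8, a reader of Polycomb marks, rose by 0.92 ± 0.10 and Mtf2, an accessory subunit, by 0.64 ± 0.11 (adjusted p = 0.000506 and 0.00444), while the enzyme gene Ezh2 and its partner Suz12 differed by 0.25 ± 0.10 and 0.05 ± 0.09. Of 18 deacetylases and sirtuins, 4 rose and 3 fell (2 to 4 and 2 to 3 in the leave-outs, 2 and 3 without the block). Hdac4 read 8.41, 8.89, 7.98 and 7.65 in DN2 and 9.61, 10.02, 9.39 and 9.07 in DN3 (1.29 ± 0.12, adjusted p = 0.000233). Its class II relative Hdac9 fell by 1.25 ± 0.16, or -0.50 averaged over its probe sets, and Sirt3, the mitochondrial sirtuin, by 1.66 ± 0.16 (adjusted p = 0.0014 and 0.000267). The class I genes Hdac1 and Hdac2 differed by 0.07 ± 0.08 and 0.19 ± 0.11. Smyd2, a lysine methyltransferase, rose by 0.77 ± 0.09 (adjusted p = 0.000618), and in its list of 53 methyltransferases and demethylases 4 rose and 4 fell (3 to 4 and 0 to 4 in the leave-outs, 3 and 1 without the block). Among 43 chromatin remodellers 1 rose and 4 fell (0 to 1 and 1 to 4 in the leave-outs, 0 and 0 without the block), and among 12 DNA methylation and TET enzymes 0 rose and 2 fell (0 and 1 to 2 in the leave-outs, 0 and 0 without the block). The 4 histone genes tested were not called.

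In 4 lists of genes for mitochondria, splicing and tRNA charging each call was a rise. The share of rises was 23.7% of mitochondrial ribosomal proteins, against 9.96% over all genes. It was near that background in the others, at 8.99% of splicing factors, 12.1% of tRNA synthetases and 10.3% of respiratory chain genes. These others held 0 falls, which made up 10.8% over all genes. Falls were as scarce in related lists. They were 0 of 48 cytosolic ribosomal proteins, 1 of 55 translation factors and 1 of 46 proteasome subunits. Of 76 mitochondrial ribosomal proteins 18 rose and 0 fell (4 to 15 and 0 in the leave-outs, 6 and 0 without the block), at a list median of 0.19 against 0.02 over all genes. Mrpl37 rose by 0.81 ± 0.13 (adjusted p = 0.00412). Among 89 splicing factors 8 rose and 0 fell (3 to 7 and 0 in the leave-outs, 2 and 0 without the block), among 33 tRNA synthetases 4 rose and 0 fell (1 to 5 and 0 to 1 in the leave-outs, 1 and 0 without the block), and among 87 respiratory chain and ATP synthase genes 9 rose and 0 fell (1 to 10 and 0 in the leave-outs, 5 and 0 without the block). Of 55 translation factors 8 rose and 1 fell (3 to 8 and 1 to 2 in the leave-outs, 3 and 1 without the block), with Eif2ak3, the kinase PERK of the unfolded protein response, up by 1.21 ± 0.18 and Eif2b3, an exchange factor subunit, by 0.90 ± 0.14 (adjusted p = 0.00288 and 0.00292). Of 48 cytosolic ribosomal proteins 1 was called, also a rise, and Rpsa and Rps3a1 differed by 0.001 ± 0.07 and 0.03 ± 0.07. Proteasome subunits were called in 3 of 46, and of 51 microRNA and mRNA decay factors 3 rose and 4 fell (0 to 4 and 0 to 5 in the leave-outs, 0 and 3 without the block). Counts in this group depend on scaling and on the block, and without normalization between arrays 5 and 0 mitochondrial ribosomal proteins, 1 and 0 splicing factors and 3 and 0 respiratory chain genes rose and fell.

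Of 73 chaperones, 15 rose and 6 fell (4 to 8 and 2 to 5 in the leave-outs, 3 and 3 without the block). Hspb11 rose by 0.65 ± 0.09 and Hspa13 fell by 0.57 ± 0.09 (adjusted p = 0.00185 and 0.0028), and Hspa8, the constitutive HSC70, differed by 0.13 ± 0.08. In the ubiquitin list of 227, 12 rose and 29 fell (2 to 10 and 10 to 23 in the leave-outs, 2 and 13 without the block). Trim16, a ligase linked to autophagy of damaged membranes, read 8.19, 8.50, 7.94 and 8.26 in DN2 and 5.16, 6.14, 6.15 and 5.79 in DN3 (-2.41 ± 0.20, adjusted p = 0.000134). Rnf19b, a ligase of natural killer cells, fell by 1.13 ± 0.10, while Fbxl5, which controls iron regulatory proteins, rose by 0.66 ± 0.11 (adjusted p = 0.00019 and 0.00465).

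Lysosome and vesicle genes held more falls than rises. Of 47 lysosomal genes 4 rose and 11 fell (2 to 5 and 6 to 12 in the leave-outs, 3 and 5 without the block), and of 185 vesicle transport genes 9 rose and 26 fell (4 to 8 and 11 to 23 in the leave-outs, 4 and 17 without the block). Ctss, a protease of antigen-presenting cells, read 7.81, 7.70, 8.33 and 8.77 in DN2 and 6.46, 5.87, 6.91 and 6.77 in DN3 (-1.65 ± 0.18, adjusted p = 0.000535). Rab38, a GTPase of lysosome-related organelles, fell by 2.05 ± 0.17 and Rab31 by 2.44 ± 0.21, or -1.05 averaged over its probe sets, while Rab33a rose by 0.85 ± 0.14 (adjusted p = 0.000155, 0.000177 and 0.00369). The list medians, -0.09 and -0.02, were 0.07 and 0.10 without normalization between arrays and have no settled sign.

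Metabolic enzymes changed at particular steps. In nucleotide synthesis 13 rose and 5 fell (3 to 12 and 1 to 4 in the leave-outs, 7 and 3 without the block) of 40 tested, and Atic, of the purine pathway, rose by 0.57 ± 0.08 while Ctps2, a CTP synthase, fell by 0.71 ± 0.12 (adjusted p = 0.00168 and 0.00456). In glycolysis and the pentose phosphate pathway 4 rose and 3 fell (2 to 6 and 0 to 3 in the leave-outs, 3 and 1 without the block) of 26. Ldhb, the lactate dehydrogenase B chain, read 9.60, 9.45, 9.23 and 8.48 in DN2 and 10.75, 11.11, 10.83 and 10.60 in DN3 (1.63 ± 0.14, adjusted p = 0.000163). Pfkp, a phosphofructokinase, rose by 0.61 ± 0.10 (adjusted p = 0.00361), and Pgk1 and Tkt differed by 0.14 ± 0.12 and 0.01 ± 0.08.

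Of 171 solute carriers tested, 21 rose and 15 fell (10 to 23 and 8 to 15 in the leave-outs, 12 and 6 without the block), and monocarboxylate transporters were on both sides. Slc16a5 rose by 1.48 ± 0.21 and Slc16a1, which carries lactate, by 0.84 ± 0.09, while Slc16a7 fell by 2.05 ± 0.38 (adjusted p = 0.00204, 0.000486 and 0.00689). Slc25a24, a mitochondrial carrier of ATP and phosphate, read 8.29, 8.42, 8.47 and 8.66 in DN2 and 5.98, 6.24, 6.11 and 6.34 in DN3 (-2.29 ± 0.12, adjusted p = 1.45e-05), or -1.42 averaged over its probe sets.

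Lipid enzymes rose and fell in equal number, as 10 rose and 10 fell (6 to 9 and 5 to 9 in the leave-outs, 4 and 5 without the block) of 61. Lpcat2, which makes platelet-activating factor, fell to below the filter level, at least 6.07-fold (or -1.97 on the log2 scale averaged over its probe sets), and Alox5ap, which hands arachidonic acid to 5-lipoxygenase, fell by 2.77 ± 0.19 (adjusted p = 2.67e-05 and 5.67e-05). Pld4, a nuclease of the phospholipase D family, rose by 1.88 ± 0.19 and Acsl3, an acyl-CoA synthetase, by 1.09 ± 0.09 (adjusted p = 0.000383 and 0.000134). Ptger2, a prostaglandin E receptor, fell by 1.73 ± 0.18 (adjusted p = 0.000431), and Lta4h, a leukotriene hydrolase, differed by -0.08 ± 0.13 on its brightest probe set but by -0.64 averaged over its probe sets, where it was called. Gsr, glutathione reductase, rose by 0.90 ± 0.13, and Selenop, a secreted selenoprotein, fell by 1.11 ± 0.17 (adjusted p = 0.00183 and 0.00299). In their list of 61 redox enzymes 6 rose and 10 fell (3 to 7 and 5 to 9 in the leave-outs, 2 and 7 without the block), in the eicosanoid list 2 rose and 4 fell (0 to 1 and 2 to 3 in the leave-outs, 0 and 3 without the block) of 14, and of 16 haem and iron genes 1 rose and 1 fell (1 to 2 and 0 to 2 in the leave-outs, 1 and 0 without the block).

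Enzymes that build surface glycans were mostly lower where called. Of 77 glycosyltransferases and sulfotransferases tested, 4 rose and 13 fell (2 to 7 and 7 to 17 in the leave-outs, 3 and 9 without the block). Fut7, the fucosyltransferase that makes selectin ligands, read 5.09, 5.08, 6.19 and 5.77 in DN2 and 3.94, 3.24, 3.32 and 3.03 in DN3 (-2.15 ± 0.26, adjusted p = 0.000908). Fut8, of core fucose, fell by 1.66 ± 0.11, or -0.55 averaged over its probe sets, and Gcnt3, a branching enzyme, rose by 1.70 ± 0.22, or 1.03 (adjusted p = 3.98e-05 and 0.00142).

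Among genes of the cytoskeleton the large differences were falls. Of 75 actin genes 2 rose and 16 fell (1 to 3 and 12 to 15 in the leave-outs, 1 and 13 without the block). Vim, vimentin, read 11.26, 11.28, 10.53 and 10.98 in DN2 and 8.55, 8.83, 8.77 and 8.78 in DN3 (-2.28 ± 0.16, adjusted p = 5.02e-05). Gsn, the actin-severing gelsolin, fell by 1.84 ± 0.32, or -0.96 averaged over its probe sets (adjusted p = 0.00525), while Actg1 and Cfl1, general actin genes, differed by 0.09 ± 0.08 and 0.002 ± 0.08. The median of the list was -0.11, and 0.03 without normalization between arrays. Of 52 tubulins and kinesins 5 rose and 8 fell (1 to 3 and 2 to 6 in the leave-outs, 3 and 4 without the block). Kif13a, a vesicle motor, fell by 2.31 ± 0.16, or -1.15 averaged over its probe sets, and Tuba8 by 2.06 ± 0.29, or -1.35 (adjusted p = 5.02e-05 and 0.00194).

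Cell cycle and repair genes were called in shares not far from the 9.96% higher and 10.8% lower over all genes. The shares were 5.88% and 13.7% of cell cycle genes and 9.30% and 11.6% of repair genes. Among 51 cyclins, kinases and inhibitors 3 rose and 7 fell (0 to 3 and 3 to 8 in the leave-outs, 0 and 5 without the block), with Cdkn2d, an inhibitor of Cdk4 and Cdk6, at -0.73 ± 0.13 (adjusted p = 0.00537) and Cdk4 and Cdk6 at -0.02 ± 0.07 and -0.25 ± 0.08, not called. Of 86 repair and checkpoint genes 8 rose and 10 fell (3 to 8 and 4 to 10 in the leave-outs, 4 and 3 without the block). Polm, a DNA polymerase of end joining in antigen receptor rearrangement, read 3.46, 3.20, 3.28 and 3.69 in DN2 and 5.15, 5.15, 4.61 and 5.56 in DN3 (1.71 ± 0.19, adjusted p = 0.000656). Parp8 fell by 0.93 ± 0.09 (adjusted p = 0.000263), and Xrcc6, which encodes Ku70, differed by 0.28 ± 0.11.

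**Figure D4:**
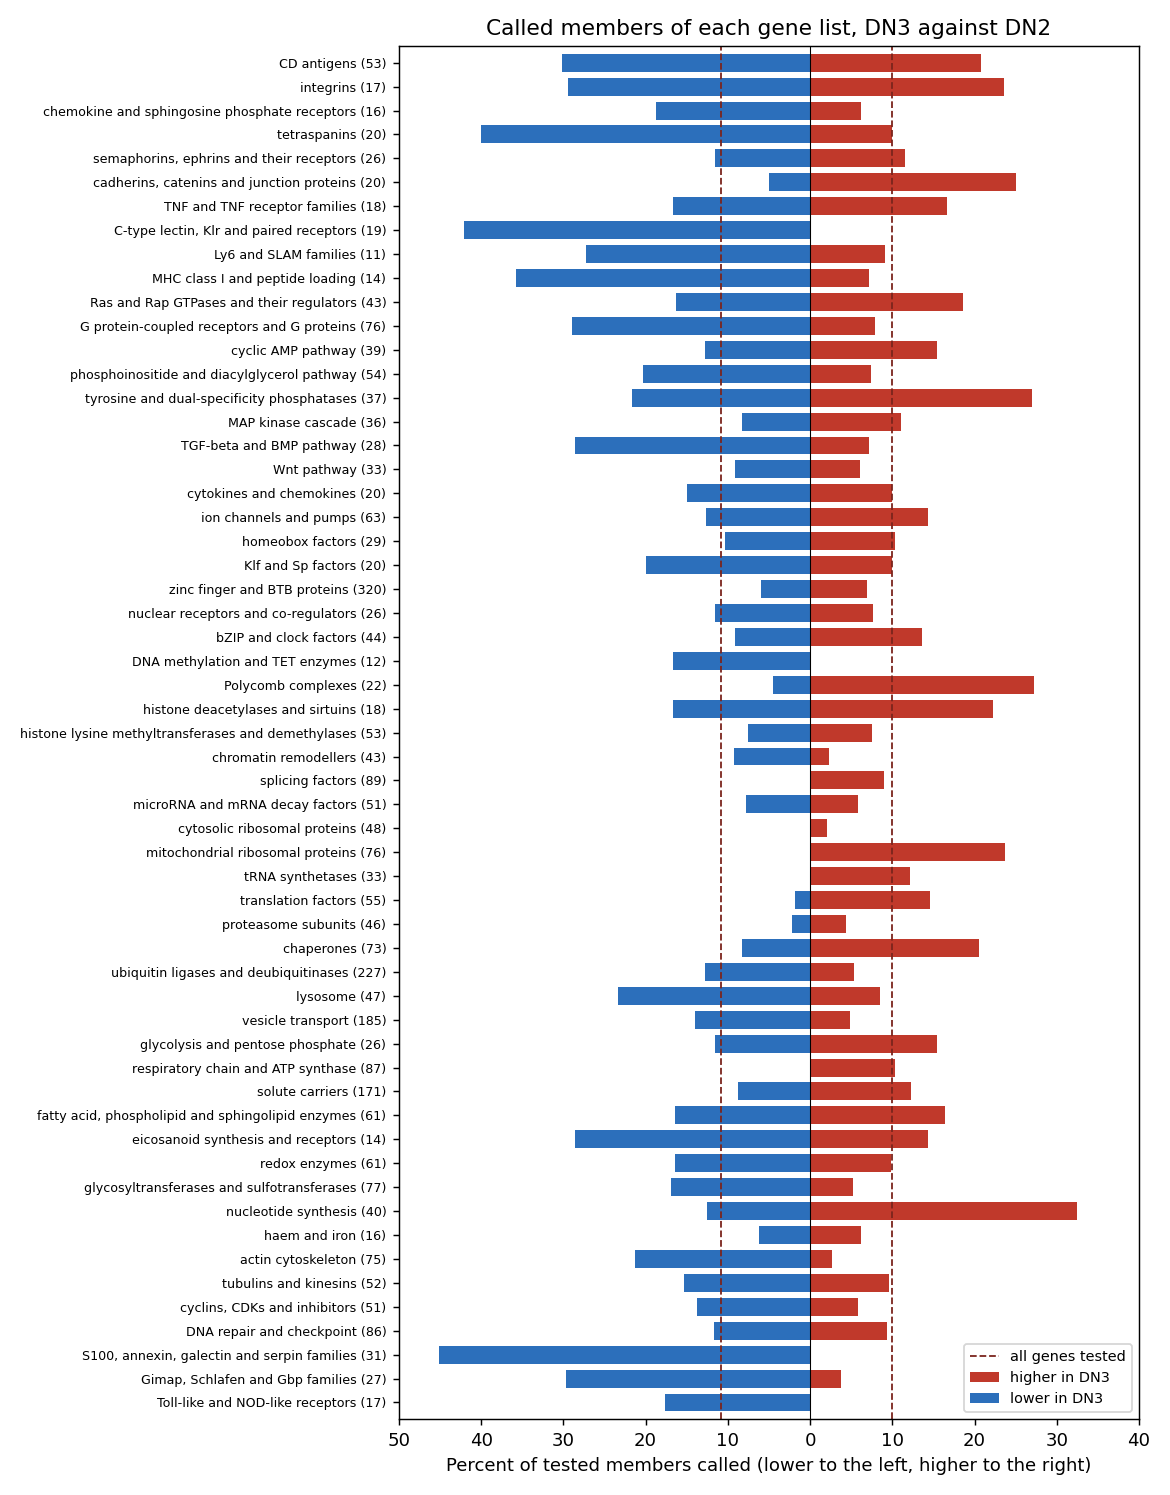
Percent of tested members called higher in DN3 (red, to the right) and lower (blue, to the left) in each list with at least 10 tested members, whose number stands in parentheses. Dashed lines mark 9.96% and 10.8%, the shares over all 11174 genes tested. Mitochondrial and cytosolic ribosomal proteins, splicing factors, tRNA synthetases and respiratory chain genes have bars on the right alone. Those of splicing factors (8.99%) and respiratory chain genes (10.3%) end near the dashed line.

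Families of secreted and calcium-binding proteins held falls and no rise. Of 31 S100, annexin, galectin and serpin genes, 0 rose and 14 fell (0 and 7 to 14 in the leave-outs, 0 and 9 without the block). Serpinb1a, an inhibitor of neutrophil proteases, read 9.99, 10.07, 10.43 and 10.55 in DN2 and 6.26, 6.85, 7.58 and 7.10 in DN3 (-3.31 ± 0.25, adjusted p = 7.87e-05). Anxa1, a phospholipid-binding annexin, fell by 2.33 ± 0.38 and Serpinf1 by 2.02 ± 0.36 (adjusted p = 0.00369 and 0.00588). Averaged over probe sets these 3 genes were at -2.68, -1.03 and -1.10. In the Gimap, Schlafen and Gbp list 1 rose and 8 fell (0 to 1 and 4 to 8 in the leave-outs, 0 and 5 without the block) of 27, and Ifi209, an interferon-induced gene of the same list, fell by 1.44 ± 0.10 (adjusted p = 5.17e-05). Casp1, the inflammasome protease, fell by 1.53 ± 0.25 and Nlrc5, an activator of class I genes, by 0.82 ± 0.16 (adjusted p = 0.00369 and 0.0075).

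Markers of other cells were read beside these falls. Of 3 mast cell markers tested (12 on the array) 1 fell, of 10 monocyte, macrophage and granulocyte markers 0 rose and 5 fell (0 and 3 to 6 in the leave-outs, 0 and 3 without the block), and of 7 dendritic cell markers 0 rose and 1 fell (0 and 1 to 4 in the leave-outs, 0 and 1 without the block). The summed signal of the tested myeloid markers ran from 1014 to 2214 on the DN2 arrays and from 420.7 to 523.9 on the DN3 arrays, and that of the mast cell markers from 2837 to 3833 on the DN2 arrays and from 102.1 to 269.9 on the DN3 arrays. Cpa3 made up most of the mast cell sum, as Hdc and Gata1 differed by -0.97 ± 0.41 and -0.44 ± 0.34 and were not called. Csf1r, the receptor that defines macrophages, read 5.26, 4.98, 5.57 and 5.51 in DN2 and 5.80, 5.33, 5.46 and 5.89 in DN3 and was not called. Lyz2, a lysozyme gene of myeloid cells, fell by 1.45 ± 0.23 (adjusted p = 0.0033). The part of other cells in the falls was not tested.

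Of 9 B cell markers 0 rose and 2 fell (0 and 0 to 2 in the leave-outs, 0 and 0 without the block), and their summed signal ran from 2421 to 3759 on the DN2 arrays and from 2961 to 3183 on the DN3 arrays. Most of that sum was Ighm, at 1952 to 3236 in DN2 and 2551 to 2815 in DN3. Among 5 natural killer cell markers 2 rose and 3 fell (1 to 2 and 2 to 3 in the leave-outs, 2 and 3 without the block), with a summed signal from 4085 to 6388 on the DN2 arrays and from 6776 to 7383 on the DN3 arrays. Gzma made up most of the natural killer sum, at 2113 to 4549 in DN2 and 6167 to 6808 in DN3, so that sum does not describe the other members. Nkg7 and Gzmb of cytotoxic granules fell by 1.60 ± 0.13 and 2.14 ± 0.19, whereas Gzma rose by 1.09 ± 0.19 (adjusted p = 0.000134, 0.000186 and 0.00559). Of 5 gamma-delta T cell markers 1 rose and 2 fell (1 and 1 to 2 in the leave-outs, 0 and 1 without the block), of 11 double-positive and mature T cell markers 5 rose and 3 fell (2 to 5 and 2 to 3 in the leave-outs, 3 and 3 without the block), of 7 erythroid and platelet markers 0 rose and 2 fell (0 and 2 in the leave-outs, 0 and 2 without the block), and of 8 epithelial and stromal markers 1 rose and 2 fell (1 to 2 and 1 to 2 in the leave-outs, 1 and 2 without the block). The rise of the stromal list was Epcam, and Krt5, a keratin of thymic epithelium, differed by 0.003 ± 0.18 at levels of 4.95 and 4.95.

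Some genes lay on opposite sides of the filter level in DN2 and DN3. For 23 of the 11174 genes tested all 4 DN3 arrays lay above that level and all 4 DN2 arrays below it, and for 61 the reverse held. DN4 was not part of this pattern, and the level is not a limit of detection. Ikzf3, the Aiolos gene, read 4.37, 2.85, 4.06 and 4.10 in DN2 and 6.17, 5.20, 6.31 and 6.42 in DN3 (2.18 ± 0.20, adjusted p = 0.000219), or 0.67 averaged over its probe sets. Ephx3, an epoxide hydrolase, rose by 1.59 ± 0.28 and Cntnap2, a neurexin-like adhesion protein, by 1.62 ± 0.22 (adjusted p = 0.00505 and 0.00152). On the other side Il31ra, a cytokine receptor, fell at least 3.15-fold and Rasd2, a Ras-like GTPase, at least 3.47-fold (adjusted p = 5.02e-05 and 0.000266), beside Ifitm1, Cd34, Lyl1, Cd244a, Clec4e, Clec4d, Tyrobp and Lpcat2. Over all probe sets averaged the differences were 0.60 for Cntnap2, -2.57 for Il31ra and -1.63 for Rasd2. Since the pattern chose these genes, it is a description.

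The next stage was measured in the same sorts, in a comparison that shares the DN3 arrays, so its values are set beside the first and not counted with them. Between DN4 and DN3 1720 genes were called higher in DN4 (15.4%) and 1649 lower (14.8%). Scn4b read 5.02, 6.13, 4.99 and 5.48 in DN4, -3.92 ± 0.19 from DN3, and Afdn read 5.67, 5.91, 5.65 and 5.79, -2.22 ± 0.16 from DN3 (adjusted p = 1.3e-05 and 0.000102). For Scn4b the DN4 arrays overlapped the DN2 arrays, and for Afdn they ran from 5.65 to 5.91 against 4.94 to 5.73 in DN2. Slc5a9 and Itgae also fell again, by differences of -1.04 ± 0.21 and -1.25 ± 0.25 (adjusted p = 0.00814 and 0.00779). Camk4, H2-Q2, Bcat1 and Ikzf3 rose further, by 1.40 ± 0.22, 1.61 ± 0.22, 1.20 ± 0.24 and 1.71 ± 0.20 (adjusted p = 0.00241, 0.00145, 0.00764 and 0.00071). Lef1 and Tenm1 differed by 0.25 ± 0.14 and -0.36 ± 0.18, not called. Of the falls Ctla2b, Nfe2, Bpifc and Ifitm2 fell further, by differences of -2.32 ± 0.23, -2.03 ± 0.30, -1.86 ± 0.23 and -1.64 ± 0.10 (adjusted p = 0.000336, 0.00206, 0.000913 and 3.79e-05), whereas Adgrg3, Emilin2, Napsa and Ifitm1 differed by 0.06 ± 0.11, -0.63 ± 0.26, -0.14 ± 0.14 and -0.12 ± 0.22 and were not called.

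The sorts disagreed on the size of some differences. Ptgs2, the inducible cyclooxygenase, read 5.24, 4.38, 8.28 and 8.22 in DN2 and 8.21, 8.65, 9.43 and 9.34 in DN3, a difference of 3.62 in sorts 1 and 2 and 1.14 in sorts 3 and 4. Junb, an AP-1 subunit induced by cell activation, read 7.70, 8.44, 10.09 and 10.55 in DN2 and 10.20, 11.18, 11.36 and 11.004 in DN3, with 2.62 and 0.86 in the same pairs of sorts. Their DN2 arrays of sorts 3 and 4 were higher than those of sorts 1 and 2, and the highest DN2 array overlapped the DN3 range. Both were called over all sorts (2.38 ± 0.62 and 1.74 ± 0.41, adjusted p = 0.0278 and 0.0195), but in 5 of 12 leave-outs each and not without the block (adjusted p = 0.0626 and 0.0573).

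Klf2, a factor of T cell quiescence and migration, read 7.36, 8.61, 6.60 and 6.18 in DN2 and 4.46, 4.84, 5.47 and 5.26 in DN3 (-2.18 ± 0.46, adjusted p = 0.0115), with -3.34 in sorts 1 and 2 and -1.03 in sorts 3 and 4, and its call ended without sort 1. Lpar6, a lysophosphatidic acid receptor, read 10.87, 10.47, 9.56 and 8.47 in DN2 and 7.996, 7.68, 8.85 and 7.95 in DN3 (-1.73 ± 0.42, adjusted p = 0.022), and its call ended without either array of sort 1 or 2 and without either sort. Ngp, a neutrophil granule protein, read 6.79, 4.33, 6.51 and 8.28 in DN2 and 4.14, 4.92, 4.98 and 5.75 in DN3, lower in DN3 in 3 of 4 sorts (-1.53 ± 0.46, adjusted p = 0.0467). It was called in 3 of 12 leave-outs and not without the block (adjusted p = 0.193).

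**Figure D5:**
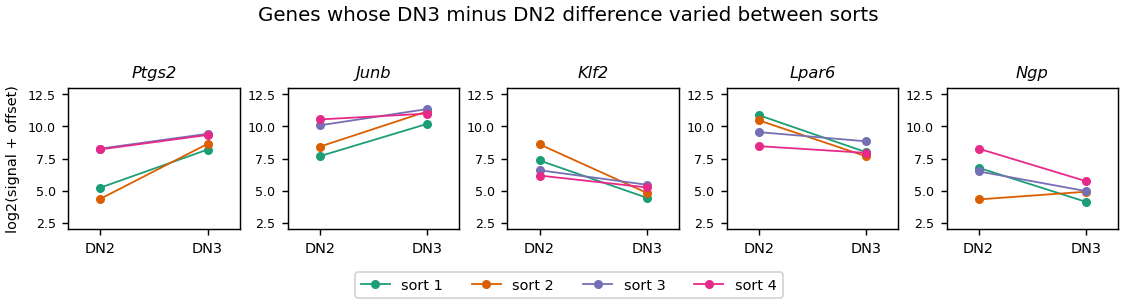
Levels of 5 genes whose DN3 minus DN2 difference varied between sorts, in log2(signal + offset) on the vertical axis against the stage, with 1 line for each sort. For Ptgs2 the DN2 arrays of sorts 1 and 2 read 5.24 and 4.38 and those of sorts 3 and 4 8.28 and 8.22, and for Ngp the line of sort 2 runs up while the others run down.

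Neighbouring genes sometimes moved together. Along the RefSeq gene order 20 runs of 3 or more adjacent tested genes were all called higher and 28 all called lower, the longest of 4 genes. With 9.96% of all genes called higher and 10.8% lower, some runs arise without any link between neighbours. How many would do so was not computed, so the runs are a description. On chromosome 9 the run Scn2b, Scn4b and Tmprss4, a membrane serine protease, rose, with Tmprss4 at 1.23 ± 0.20 (adjusted p = 0.00346). On chromosome 7 the run Ifitm2, Ifitm1 and Ifitm3 fell, with Ifitm2 at -1.58 ± 0.10 and Ifitm3 at -1.77 ± 0.15 (adjusted p = 3.25e-05 and 0.000177). On chromosome 2 Thbd, thrombomodulin, fell by 1.71 ± 0.29 beside Cd93 (adjusted p = 0.00454), and on chromosome 8 Adgrg3 lies in a run with the related Adgrg1. Over all 11135 adjacent pairs both genes rose in 1.43% and both fell in 1.56%, while 1.85% moved in opposite directions. Similar probe sequences can make neighbours of 1 family read each other's transcripts, which was not tested.

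Of the 157 called genes named above, 152 were called in all 12 leave-outs and without the block. The exceptions were Ptgs2, Junb, Klf2, Lpar6 and Ngp. The printed genes are a selection, so this share does not describe the calls as a whole. Of all 2325 calls 1249 were also called without the block and 1113 without sort 4. Genes that the naming rule allowed but that are not printed include less stable ones. A rise among the greatest of these was called in 4 of 12 leave-outs. Without normalization between arrays the calls of S1pr1, H2-K1, Tap1, Hspa13, Ctps2, Cdkn2d and Nlrc5 ended, and with probe sets averaged those of Tap1, Hdac9, Hspb11, Hspa13 and Ikzf3. With the Gapdh ratio as a covariate the calls of 59 of the 157 ended. Among the genes given by array these were Mpo, Dusp4, Dusp2, Scn2b and Polm beside Ptgs2, Junb, Klf2, Lpar6 and Ngp. In that fit Ptgs2 was at 0.67, Junb at 0.40, Klf2 at -0.54, Lpar6 at -0.16 and Ngp at -2.36, against 2.38, 1.74, -2.18, -1.73 and -1.53 without it, while Mpo was at -3.93, Dusp4 at 1.38, Dusp2 at -1.70, Scn2b at 1.51 and Polm at 1.74. The others were Itgb7, S1pr2, S1pr4, S1pr1, Cd53, Cdh1, Siglecf, H2-K1, Tap1, Rasal1, Spry1, P2rx1, Inpp5d, Dusp10, Ubash3b, Tgfbr2, Ltbp3, Tgfb1, Il34, Ccl5, Trpv2, Hoxa9, Zfp521, Cbx8, Mtf2, Hdac9, Mrpl37, Eif2b3, Hspb11, Hspa13, Fbxl5, Rab33a, Pfkp, Slc16a1, Slc16a7, Ptger2, Selenop, Gcnt3, Atic, Ctps2, Cdkn2d, Anxa1, Serpinf1, Casp1, Nlrc5, Lyz2, Gzma, Thbd and Tmprss4. Of the genes named as not called, Ccr9, Cdk6, Ezh2, Hdc, Lta4h, Ptprc, Thy1 and Xrcc6 were called under at least 1 other setting.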

How the data were processed

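RNA of sorted DN2, DN3 and DN4 thymocytes was amplified and hybridised to 12 arrays, 4 a stage. Per the submitters' processing notes, the deposited intensity values came from Affymetrix GCOS and are 1 linear signal per probe set. The GCOS version, algorithm and scaling were not given in the sources used here. The labels gave each array's stage and sort number.

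Of 45101 probe sets, 64 of them controls, the platform annotation gave 34945 1 gene symbol, 932 several and 9160 none. Entrez identifiers led 34741 probe sets to a current RefSeq symbol (GRCm38.p6), while 204 stayed under the older one. The brightest probe set on average stood for each gene. Arrays were quantile-normalized, the 25th percentile (signal 5.68) was added, log2 was taken, and 11174 of 18193 genes above log2 4.71 on at least 4 arrays were kept.

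limma 3.58.1 in R 4.3.3 (lmFit, contrasts, eBayes, two-sided) was fitted to 12 arrays with the sort as a block, since the labels give arrays of a number the same source of cells. Deviations from stage means correlated at 0.307 to 0.335 between the DN2 and DN3 arrays of a sort and at most 0.107 between sorts. Benjamini-Hochberg adjustment covered every gene tested, with calls at an adjusted p under 0.05. On simulated data of 11174 genes with known changes of 0.5, 1 and 2 on the log2 scale the fit recovered 34.9%, 79.1% and 89.6% of them, with 9 false calls among 10974. There 66, 67 and 67 genes were changed, far fewer than were called in the real data. Noise was drawn independently for each gene and array, and no array-wide effect went with the stage. The false calls are therefore not an error rate for the real data.

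Named genes were the 6 markers and the called rises and falls of greatest size that held in 4 of 4 sorts. Per list they were the called members of greatest difference and the brightest not called. Added to these were genes above the filter at only 1 of DN2 and DN3, genes of most variable difference between sorts, and runs of neighbours. Not every such gene is printed. One further list and its genes are not reported here. The lists hold genes matched by symbol, and members, lists and tests were chosen with earlier results of these data known. Alternatives were no block, only the 8 arrays, median centring, no normalization, other offsets and filters, the mean of probe sets, specific probe sets, trend and robust settings, pairs of sorts, the Gapdh ratio as a covariate, and leaving out each array or sort. Plots used matplotlib 3.10.9 under Python 3.11.15.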

Additional observations from a re-analysis of the deposited data

Results flagged for a closer look

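In 18 of 384 groups of 4 arrays checked, 1 array stood far from the other 3 by Dixon's test, and chance gives about 1 in 20. The array of DN2 sort 1 was the one apart for Vwce (4.37, the others 4.96 to 5.01), Emilin2 (8.55, the others 8.75 to 8.77), Nfe2 (9.51, the others 8.51 to 8.62), Cdh15 (7.40, the others 6.71 to 6.77), Hspa8 (13, the others 13.34 to 13.37) and Actg1 (13.26, the others 13.36 to 13.37). That of DN2 sort 2 was apart for Casp1 (7.96), that of DN2 sort 3 for Dusp10 (7.68) and that of DN2 sort 4 for Tspan2 (10.22), Plcg2 (9.75) and Epcam (6.31, the others 7.73 to 7.87). Among DN3 arrays sort 1 was apart for Zeb1 (10.28), Fut8 (9.74) and Thbd (4.61, the others 5.84 to 5.96), sort 3 for Il34 (5.53) and Lta4h (12.10), and sort 4 for Tap1 (8.52) and Rnf19b (7.33). The called genes among these kept their direction without the array concerned, and their calls are covered by the leave-outs.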

How the results depend on the processing

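The count of 2325 called genes was 1253 with no replicate block for the sort, 1026 without normalization between arrays, 1454 without the filter on dim genes, 292 in sorts 1 and 2 alone, 572 in sorts 3 and 4 alone and 397 with each array's Gapdh ratio (3′ over 5′ probe sets) added as a covariate. It ran from 1150 to 2010 when an array or a sort was left out, and within 1.5 times of the full count under the other settings. Of the 1253 genes called without the block 1249 were also called with it. The 490 genes at least 2-fold apart became 264 with the filter at the 75th percentile, 287 in sorts 1 and 2 alone, 299 with the covariate and 433 to 514 in the leave-outs. The covariate left 5 residual degrees of freedom against 6 and a median standard error of 0.21 against 0.13. The cause of these changes was otherwise not tested. No called gene named in the text changed direction under any setting run. Counts of list members moved by over 1.5 times in 42 of 68 lists without the block, 45 without normalization and 63 with the covariate, so small counts describe these fits alone.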
